A study of Rattus norvegicus with 5 samples.

Results

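The 10 genes of hepatic glucose output followed here through the first hour of insulin were G6pc (now named G6pc1), Pck1, Pck2, Fbp1, Pc, Slc37a4, Ppargc1a, Crem, Creb1 and Pygl. They were taken as a list of names, with no threshold on a measured value, and every spot carrying one of their names was used. The 10 genes, of 35672 gene names on the array, had 17 probes and 35 spots. Fao cells are a clonal hepatoma line from rat liver that keeps many hepatocyte functions. They were grown for 2 days in 10% serum, starved for 16 h with the glucocorticoid dexamethasone at 10 nM, and insulin was added at 10 nM. RNA was taken at 0, 15, 30, 45 and 60 min, and 1 Agilent 1-colour array was run per time, so dexamethasone pretreatment is common to all 5 samples and the 0 min sample is the only one without insulin. No insulin-free sample of a later time was analysed here, so time in culture and insulin cannot be told apart.

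The liver makes glucose from lactate, amino acids and glycerol by gluconeogenesis and releases it from glycogen, and both routes meet at glucose 6-phosphate. That sugar phosphate enters the endoplasmic reticulum through the transporter encoded by Slc37a4 and is hydrolysed to free glucose by the phosphatase encoded by G6pc. Glucagon, through cAMP and CREB, and glucocorticoids raise transcription of G6pc and Pck1, and insulin lowers it, in part by driving FoxO proteins out of the nucleus.

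The sequences before the gene starts are given for 3 genes, since G6pc and Pck1, both textbook targets of insulin, gave different time courses, and Crem carries a full cAMP response element before a start inside the gene. The windows hold the 250 bases before an annotated RefSeq start on the GRCr8 assembly, written 5′ to 3′ on the strand of the gene, with position -1 just before the start. Capitals mark every match, on either strand, to the motifs searched.
G6pc, chr10:86807409-86807658, plus strand: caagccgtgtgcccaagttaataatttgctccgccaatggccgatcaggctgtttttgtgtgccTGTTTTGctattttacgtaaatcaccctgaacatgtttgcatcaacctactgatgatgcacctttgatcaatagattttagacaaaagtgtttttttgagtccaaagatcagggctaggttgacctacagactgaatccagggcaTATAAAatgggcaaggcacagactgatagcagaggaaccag
Pck1, chr3:182348322-182348571, plus strand: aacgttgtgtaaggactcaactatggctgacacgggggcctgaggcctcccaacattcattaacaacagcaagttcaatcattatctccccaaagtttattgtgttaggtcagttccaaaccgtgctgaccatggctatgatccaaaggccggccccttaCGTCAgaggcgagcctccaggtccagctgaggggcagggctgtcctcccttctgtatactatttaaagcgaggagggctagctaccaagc
Crem (internal start), chr17:58984547-58984796, plus strand: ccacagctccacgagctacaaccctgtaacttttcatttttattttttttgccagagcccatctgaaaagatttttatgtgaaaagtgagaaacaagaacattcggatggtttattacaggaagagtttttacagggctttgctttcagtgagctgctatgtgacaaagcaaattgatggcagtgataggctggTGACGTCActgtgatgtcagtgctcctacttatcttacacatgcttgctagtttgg

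RefSeq windows matched 9 of the 10 genes, with 13 starts in all. TGTTTTG, the core of the insulin response sequence bound by FoxO proteins, stood in the G6pc window at -186 to -180 and in no other of the 13, and 5.46% of 33469 windows of this length hold it. TATAAA, the TATA box, was in 2 of the 13 windows and in 12.9% of all windows. In G6pc it lay at -41 to -36. In a Creb1 window it lay on the minus strand at -174 to -169 and -71 to -66. The other spelling searched for FoxO, GTAAACA (3.21% of all windows), and the full palindrome of the glucocorticoid response element (0.012%) were in none of the 13. TGACGTCA, the full cAMP response element, is in 1.59% of all windows and was found before 2 internal starts of Crem, at -56 to -49 in the window shown and at -35 to -28 in the other, and before Ppargc1a at -181 to -174. Its core TGACG, which the full element contains on both strands, was in 8 of the 13 windows, which belong to 5 genes, and in 18.2% of all windows. Of the 8, 3 are starts of Crem and 2 are overlapping windows of Slc37a4 that share 1 site, so they are not independent. In Pck1 it lies on the minus strand at -90 to -86, printed as CGTCA. Bases beyond these 250 were not searched, so a motif missing from a window may still lie farther from the start. A match of letters is not evidence of binding, and nothing in these arrays measures binding. Whether the motifs relate to the time courses was not tested. The array probes are placed on rn4 and cannot be set on the GRCr8 windows.

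Values are on a log2 scale, as signal relative to the 75th percentile of the same array, so 0 means a probe as bright as that percentile. The level of 1 probe is not comparable with that of another. Each single-spot value carries the scanner software's spot error, which comes to 0.20 log2 units for a difference between arrays. It was 0.14 to 0.15 for every single-spot value of the measured probes, bright or dim, so it does not track a measured spread. Repeated spots of 1 probe varied such that a difference between arrays had a standard deviation (SD) of 0.18 to 0.20. Neither error covers the spread between cultures or between repeated arrays, because no time has a replicate. Arrays of 0 to 45 min lay on slide 1, in positions that followed time, and the 60 min array lay on slide 2 with a scan of its own and a 75th percentile of 480.3 against 253.6 to 299.9. At 60 min slide and time cannot be told apart, nor can position and time within slide 1. All 13 hepatocyte markers examined, among them Alb, Ttr and Hnf4a, were well above background on all 5 arrays. Markers of other liver cells were mixed. On all 5 arrays 2 of 4 macrophage and blood markers (Cd68, Cd14), 1 of 3 endothelial (Cdh5), 2 of 3 stellate (Col1a1, Col1a2) and 2 of 4 biliary markers (Krt19, Sox9) were well above background, whereas Adgre1, Pecam1, Krt7 and Epcam were on none.

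G6pc, the catalytic subunit of the phosphatase, gave the largest differences among the 10 genes. Its brighter probe (rn4 chromosome 10, 90403940 to 90403999) read 5.33, 5.32, 4.78, 4.58 and 3.40 at 0, 15, 30, 45 and 60 min. The other probe, 1052 bases away (90402888 to 90402947), read 1.61, 1.67, 1.33, 0.79 and -0.61. In both, 0 and 15 min were level within the spot error and each later array was lower than the one before it, although for the brighter probe 30 and 45 min (a step of -0.19) lay within the error of each other. By the brighter probe the transcript stood at 68.4% of its 0 min level after 30 min, 59.8% after 45 min and 26.3% after 60 min. By the dimmer probe these shares were 82.7%, 56.7% and 21.6%. The log2 differences at 60 min were -1.93 and -2.21, or 3.80-fold and 4.64-fold lower, with a spot error of 0.20 each.

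The step from 45 to 60 min, -1.18 and -1.39, was the largest of the 4 steps by both probes, and it is also the step that crosses from slide 1 to slide 2. The differences at 45 min, -0.74 and -0.82, come from slide 1 alone and exceed 3 times the technical SD of 0.20. That SD covers repeated spots within arrays only. Over all probes the 45 min changes had an SD of 0.25. Across 6 other scalings, background corrections or sources of the values, the 60 min differences stayed between -2.13 and -1.89 for the brighter probe and between -2.42 and -1.89 for the dimmer one, and those at 30 and 45 min stayed below 0 for both. The sign at 15 min is not settled, since the dimmer probe ran from -0.41 to 0.06.

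**Figure D1:**
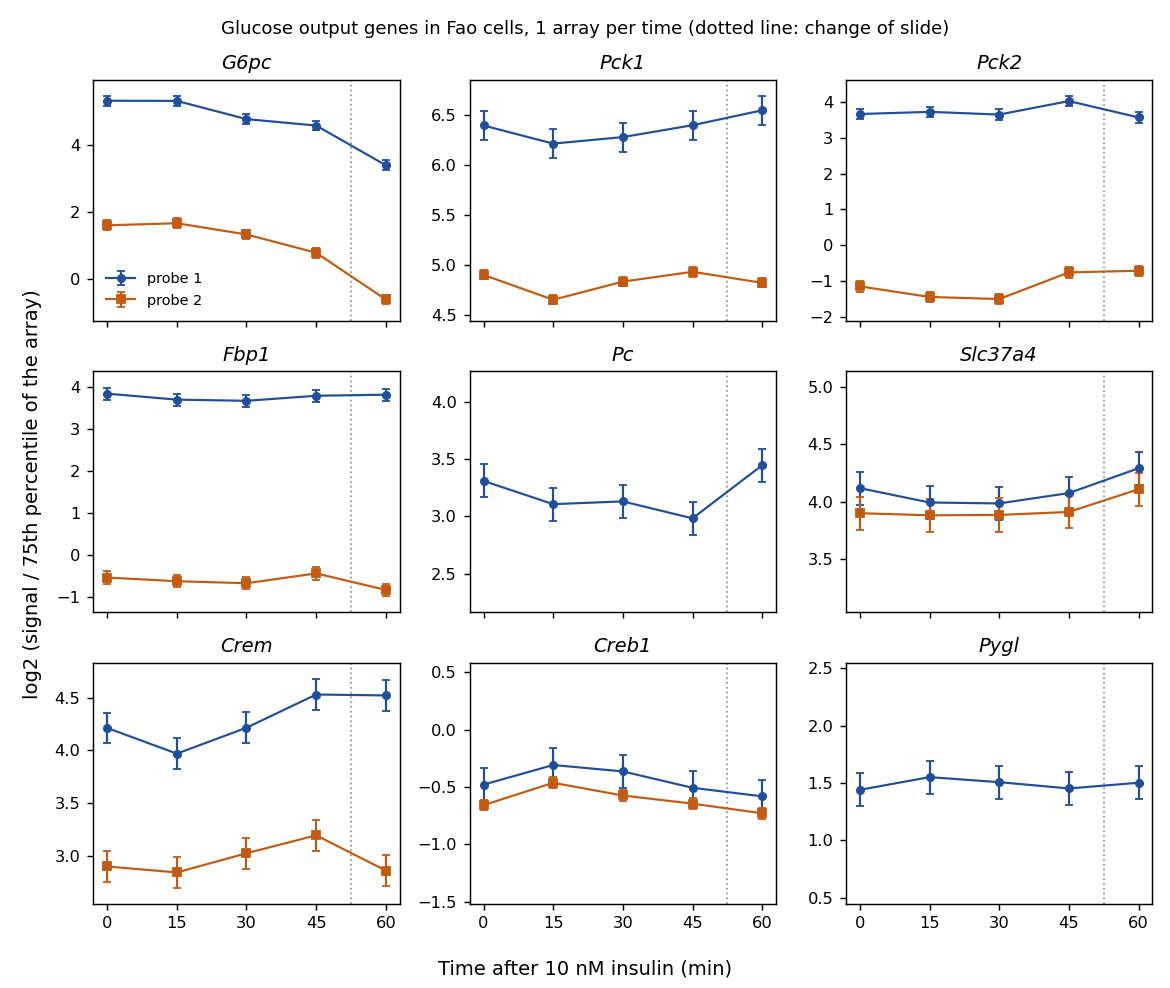
Levels of 9 glucose output genes in Fao cells against time after insulin, as log2 of signal over the 75th percentile of the array; circles and squares are different probes, bars are the software's spot error, and every panel spans at least 2 log2 units. Both G6pc probes are lowest at 60 min (3.40 and -0.61), and the other genes stay near their 0 min level; the dotted line marks the change from slide 1 to slide 2.

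Slc37a4, the transporter that feeds glucose 6-phosphate to G6pc, stayed near its starting level. Its probes (rn4 chromosome 8, 47369894 to 47369952 and 47369914 to 47369973) share 39 bases and are not independent. Probe 1 read 4.12, 3.99, 3.98, 4.07 and 4.29 in order of time, and probe 2 read 3.90, 3.88, 3.88, 3.91 and 4.11. The 60 min array was the highest for both, by 0.17 and 0.21 against 0 min, which is about the spot error, and probe 1 turned to -0.03 under scaling to the added control transcripts. The mean change of G6pc minus that of Slc37a4 was -0.34 log2 units at 30 min and -0.76 at 45 min, both within slide 1, and -2.26 at 60 min (-2.07 against 0.19). Such a difference of changes within the same arrays does not depend on how an array is scaled.

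Pck1 encodes the cytosolic phosphoenolpyruvate carboxykinase, the step that draws oxaloacetate into gluconeogenesis. Its level stayed within 0.25 log2 units of the 0 min array at all 4 later times. Probe 1 (rn4 chromosome 3, 164017597 to 164017656) read 6.39, 6.21, 6.28, 6.40 and 6.55. Probe 2 (164017138 to 164017330) is printed in 10 spots on each array and read 4.90, 4.65, 4.83, 4.93 and 4.82 as the level of the averaged spots. The spot-to-spot SD of probe 2 was 0.06 to 0.15. At 15 min its spots ran from 4.49 to 4.73, and at 0 min from 4.59 to 5.02, so the ranges overlapped. The 15 min difference was -0.25 by probe 2 (error 0.06, the software's error for the mean of its 10 spots) and -0.18 by probe 1 (error 0.20). It was below 0 under every scaling tried. Of 20400 probes, 7.03% had a 15 min difference as low as that of probe 2 and 11.9% as low as that of probe 1. At 60 min the probes differed in sign, 0.15 and -0.08.

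Pck2 encodes the mitochondrial form of the same enzyme. Probe 1 (rn4 chromosome 15, 33680499 to 33680558) read 3.67, 3.73, 3.65, 4.03 and 3.57. The dim probe 2 (33674839 to 33674897) read -1.15, -1.45, -1.51, -0.76 and -0.71. The probes came together only at 45 min, where both were higher than at 0 min, by 0.36 and 0.39. Both were above 0 under every scaling tried, but fell to 0.17 and 0.19, below the spot error, under scaling to control transcripts. Of 20356 probes, 94.3% and 95.3% had a 45 min change at or below these values. At 60 min the Pck2 probes parted, at -0.10 and 0.44.

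**Figure D2:**
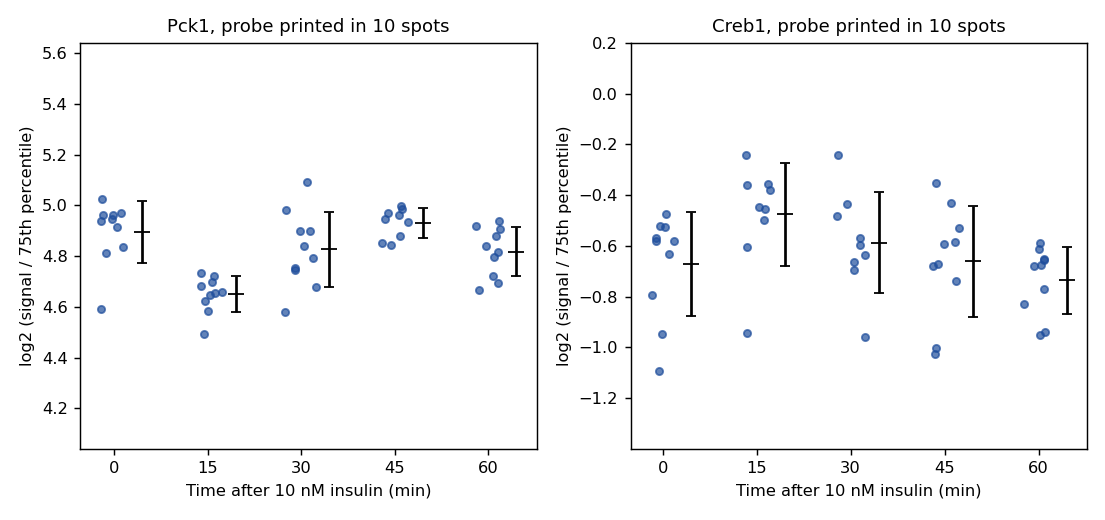
Single spots of the Pck1 and Creb1 probes that are printed in 10 spots per array, against time after insulin, with the mean and SD of the 9 or 10 usable spots beside them; spots are repeats within 1 array, not replicate cultures. The Pck1 spots lie lowest at 15 min (4.49 to 4.73), and the Creb1 spots overlap at all 5 times.

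Fbp1 encodes the liver form of fructose 1,6-bisphosphatase, and Pc encodes pyruvate carboxylase, which opens the pathway in the mitochondrion. Fbp1 probe 1 (rn4 chromosome 17, 7817936 to 7817995) read 3.84, 3.69, 3.67, 3.79 and 3.81, all within 0.17 of the 0 min array. Probe 2 (7813509 to 7815073, a span longer than the 60 bases of a probe) was dimmer and read -0.53, -0.62, -0.66, -0.43 and -0.82. Neither probe gave a difference beyond 1.5 times its spot error at any time. The single Pc probe (rn4 chromosome 1, 207212627 to 207212686) read 3.31, 3.11, 3.13, 2.98 and 3.45. Pc was lower than at 0 min on the other 3 arrays of slide 1, most at 45 min (-0.33, error 0.20), and higher on slide 2 at 60 min (0.14), where the sign turns to -0.07 under scaling to control transcripts.

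Among the regulators, Crem and Creb1 were measured and Ppargc1a was not. Crem encodes activators and repressors of cAMP-responsive genes, including ICER, the inducible repressor made from internal starts such as the one printed above. Its probes are annotated to transcript variants 1 and 2. Probe 1 (rn4 chromosome 17, 62836088 to 62836147) read 4.21, 3.97, 4.21, 4.53 and 4.52, and probe 2 (62830680 to 62830739) read 2.90, 2.85, 3.03, 3.20 and 2.86. At 45 min both were higher than at 0 min, by 0.32 and 0.30 with a spot error of 0.20. Both stayed above 0 under every scaling tried, but fell to 0.12 and 0.10, below the spot error, under scaling to control transcripts. Of 20356 probes, 92.2% and 91.0% had a 45 min change at or below these values. At 60 min probe 1 kept a difference of 0.31, whereas probe 2 was at -0.04. Which Crem starts the probes detect was not determined.

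Creb1 encodes the transcription factor CREB, whose activity is set mainly by phosphorylation. Its probes (rn4 chromosome 9, 63234628 to 63234687 and 63234620 to 63234679) share 52 bases. Probe 1 read -0.48, -0.31, -0.37, -0.51 and -0.58, and probe 2, in 10 spots, read -0.66, -0.46, -0.57, -0.65 and -0.73. Both were highest at 15 min, by 0.17 and 0.19, and lowest at 60 min, by -0.10 and -0.07. Under scaling to control transcripts the 15 min changes were -0.0022 and 0.02, and those at 60 min -0.30 and -0.27. Single spots of probe 2 varied with an SD of 0.13 to 0.22 and their ranges overlapped at all 5 times.

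Ppargc1a encodes PGC-1α, a coactivator of gluconeogenic transcription that fasting induces in liver. Its single probe was well above background on none of the 5 arrays, with signals of 0.249, -1.21, -4.01, -2.96 and -1.46 in order of time, against 6.83 to 8.51 for the dimmest probe well above background on each array. No change is given for it, and a level below this limit cannot be told from none. Pygl, the liver glycogen phosphorylase that releases glucose units from glycogen, stayed close to its starting level. Its probe (rn4 chromosome 6, 92298341 to 92298400) read 2.72, 2.93, 2.84, 2.74 and 2.83 times the 75th percentile in order of time. Its log2 changes ran from 0.01 to 0.11, below its spot error of 0.20, and their sign turned under scaling to control transcripts.

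The list was next set beside all probes of the array. At 60 min 2 of the 16 measured probes, both of G6pc, were at least 2-fold lower than at 0 min, and none was 2-fold higher, while 0.613% of 21042 probes were 2-fold lower and 0.632% 2-fold higher. No probe of the list was 2-fold lower or higher at 15 min (0.255% and 0.118% of all probes), 30 min (0.188% and 0.232%) or 45 min (0.255% and 0.334%). At a 1.5-fold limit both G6pc probes were lower at 45 min (1.07% of all probes lower, 1.68% higher) and at 60 min (3.71% lower, 3.36% higher). No other probe of the list passed that limit at those times, and none of the 16 did at 15 min (0.912% lower, 1.07% higher) or 30 min (0.918% lower, 1.13% higher). The median change of the 16 probes was -0.07, -0.09, 0.01 and -0.03 at 15, 30, 45 and 60 min, beside 0.03, 0.02, 0.02 and 0.02 over all probes. The mean change of each of the 8 measured genes other than G6pc stayed between -0.33 and 0.38. Only 0.057% and 0.038% of probes had a 60 min difference as low as those of G6pc. The change of G6pc minus that of each of the 8 other genes lay between -0.51 and -0.23 log2 units at 30 min, between -1.16 and -0.45 at 45 min and between -2.26 and -1.91 at 60 min.

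**Figure D3:**
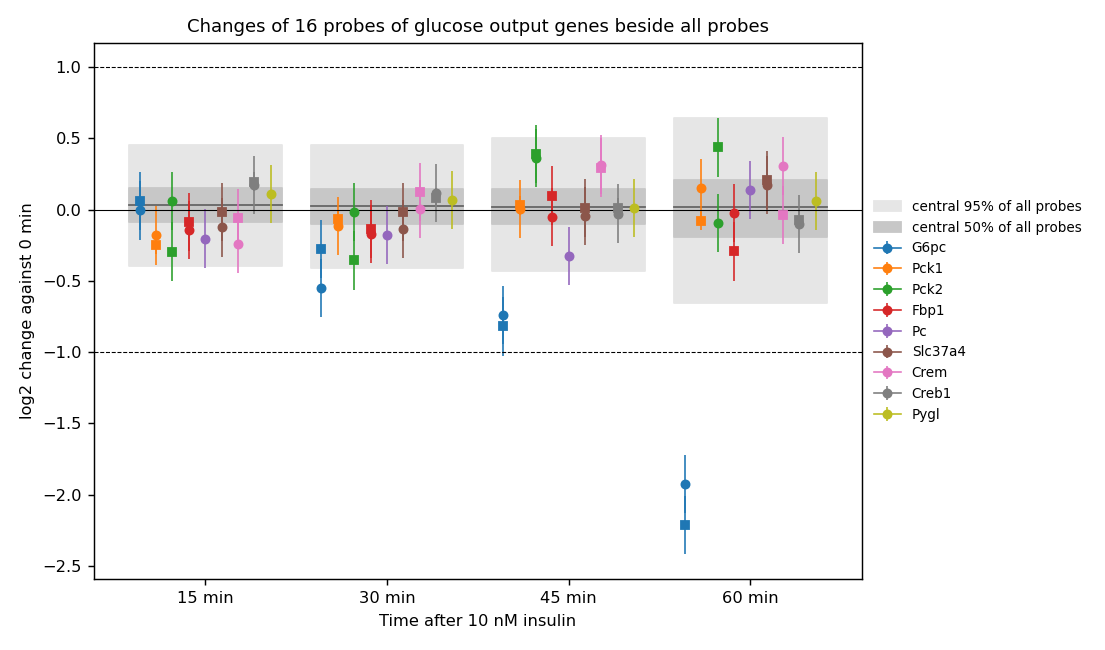
Log2 change against 0 min of the 16 measured probes of glucose output genes at each later time, with the software's spot error; grey bands hold the central 95% and 50% of all probes and dashed lines mark a 2-fold change. The brighter G6pc probe lies below the 95% band at 30 min (-0.55) and both lie below it at 45 min (-0.74 and -0.82) and at 60 min (-1.93 and -2.21), and all other probes of the list lie inside it at all 4 times.

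The slope over time was the one quantity with a test, since the 5 arrays leave 3 residual degrees of freedom. Its residual is the departure of the arrays from a straight line over time, so a bent course or a slide difference can add to it. In limma's fit over 21057 probes with Benjamini-Hochberg adjustment, no probe reached an adjusted p of 0.05, in the list or outside it, so 0.0% were called in each direction, and 2050 probes had an unadjusted p under 0.05. The G6pc slopes were -1.83 ± 0.32 and -2.12 ± 0.42 log2 units per hour (standard error), with limma adjusted p = 0.196 and 0.227. They thus failed the correction, although both probes were lower than at 0 min on each of the 3 arrays from 30 min on. Crem probe 1 had a slope of 0.47 ± 0.19 with limma adjusted p = 0.503. These were the 3 probes of the list with an unadjusted p under 0.05, where 4.18% of all probes had such a p with a falling slope and 5.56% with a rising one. Of the other 13, 3 slopes were negative and 10 positive, and their adjusted p ran from 0.549 to 0.985. Without the 60 min array the G6pc slopes were -1.11 and -1.12, so the array on slide 2 moves them by more than 1.5 times.

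The genes around these 10 were described by 6 lists, 118 names in all, of which 97 were measured at 60 min on both arrays by their brightest probe. None was 2-fold higher and 2 were 2-fold lower at 60 min (Klf15 and Pfkfb3, the latter not with normexp background correction), beside 0.489% and 0.511% of 9201 genes with a symbol, and none was 2-fold changed at 15 min (0.0556% higher and 0.133% lower), 30 min (0.268% and 0.0447%) or 45 min (0.322% and 0.1%). None had an adjusted p under 0.05 for its slope in limma, as for all 9175 genes tested (0.0%). The median change of all genes with a symbol was 0.01 at 60 min. These counts and that median rest on the brightest probe of each gene. Gnas, of the cAMP and CREB list, had changes of 0.02 at 45 min and 0.23 at 60 min by that probe. The mean of its 2 probes was 0.61 and 0.73 at these times, so the probes of Gnas disagree. Its dimmer probe was thus more than 2-fold higher at both times, which the counts leave out.

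Over all 21042 probes with a 60 min change, 48.0% were below 0. Other isoforms of the enzymes had a 60 min median of -0.14 over 6 genes, 5 of them below 0. Pygm, the muscle glycogen phosphorylase, was dim and 1.48-fold lower, Slc37a3, a relative of the transporter, 1.33-fold lower, and G6pc3, the phosphatase found in most tissues, 1.15-fold lower with levels of -0.38, -0.43, -0.42, -0.43 and -0.59. Shared steps and carriers of gluconeogenesis, which include transaminases, mitochondrial carriers and enzymes of glycolysis, had a median of 0.06 over 26 genes, 11 below 0. Ldhb, a lactate dehydrogenase subunit, was 1.45-fold lower and Slc16a1, a lactate transporter, 1.46-fold higher. The glycogen list had a median of -0.11 over 12 genes, 8 below 0, with Gaa, the lysosomal glucosidase, 1.41-fold lower and Pgm1, a phosphoglucomutase, 1.31-fold lower.

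In the cAMP and CREB list, 12 of 15 measured genes were above 0 at 60 min and the median was 0.15. Of all probes, 48.0% were below 0 at that time. Crebbp, the CREB-binding acetyltransferase, was 1.33-fold lower, Crtc2, a CREB coactivator, 1.27-fold higher and Atf1, a relative of CREB, 1.23-fold higher. Gcgr, the glucagon receptor, was well above background on no array. Transcription factors and cofactors of gluconeogenic genes had a median of 0.06 over 23 genes, 10 below 0. Klf15, a factor that promotes amino acid use for gluconeogenesis, had levels of 5.27, 5.12, 4.91, 4.63 and 4.04, lower on each array than on the one before, and was 2.35-fold lower at 60 min. Cebpb, a C/EBP factor active at the Pck1 promoter, was 1.58-fold higher, the one gene of this list at least 1.5-fold higher (2.45% of all genes were), and Ncoa2, a steroid receptor coactivator, 1.34-fold lower. Foxo1, the FoxO member most tied to G6pc, had a 60 min change of -0.08.

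A list of enzymes of glucose use and their regulators had a median of -0.27 over 15 genes, 13 of them below 0 (48.0% of all probes). Its members do not all act in 1 direction, since Gckr and the Pdk kinases restrain glucose use. Pfkfb3, which makes an activator of phosphofructokinase, was a dim probe, 2.05-fold lower at 60 min after a 15 min change of 0.87. Pdk4 and Pdk1, kinases that shut pyruvate dehydrogenase, were 1.64-fold and 1.47-fold lower, Pdk4 near the limit of detection and measured on 3 arrays. Gckr, which inhibits glucokinase, had a change of -0.27, and Pdha1, a subunit of pyruvate dehydrogenase, one of 0.21. All 6 medians compare the array on slide 2 with an array of slide 1. Under scaling to control transcripts all 6 were below 0.

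**Figure D4:**
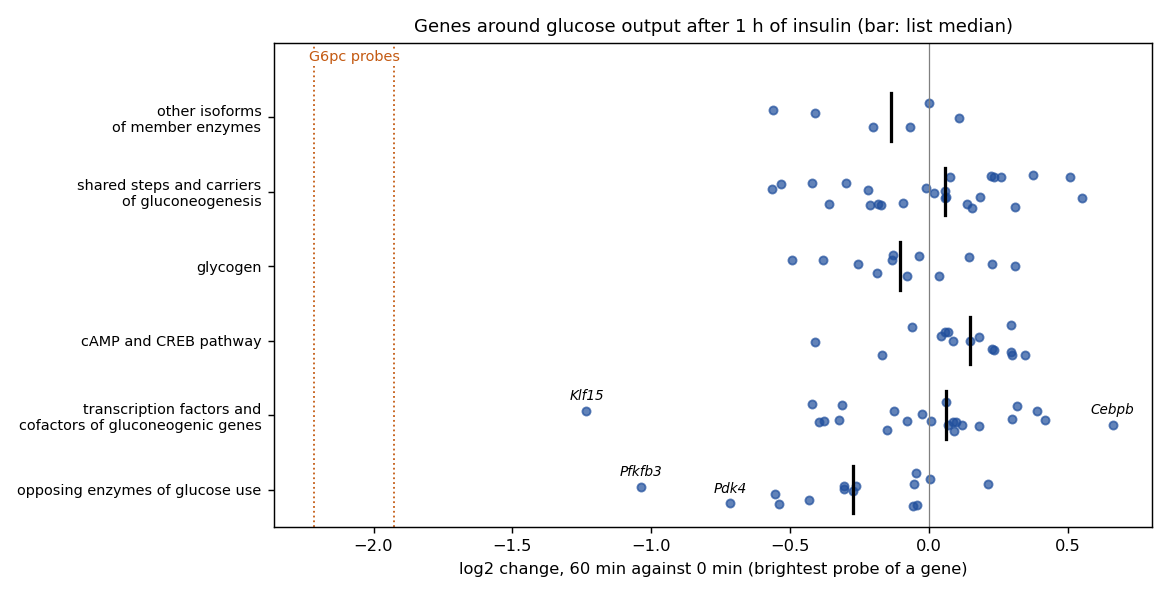
Log2 change at 60 min against 0 min of 97 genes in 6 lists around glucose output, 1 point per gene, with a bar at each list's median; the dotted lines mark the G6pc probes (-1.93 and -2.21). Klf15 (-1.23) and Pfkfb3 (-1.04) are the lowest points, and no listed gene reaches G6pc.

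The genes whose changes over the 4 later times lay closest to those of G6pc were found by the Euclidean distance between changes, over 8794 genes with a symbol that were well above background on all 5 arrays. The probes of G6pc themselves were 0.41 log2 units apart by this measure. Surf6, a nucleolar protein gene, was closest at 0.46 with changes of -0.03, -0.24, -0.57 and -1.62, but its other probe read 0.20 at 60 min, so the gene's probes disagree. Ccng2, an atypical cyclin, followed at 0.55 and ended at -1.42. Rnf39, at 0.61, ended at -1.41. Klf15, at 0.74, ended at -1.23, and Ankrd37, at 0.79, at -1.29. None of the 5 was as low as G6pc at 60 min, and no p-value belongs to a likeness over 4 changes that share the 0 min array.

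**Figure D5:**
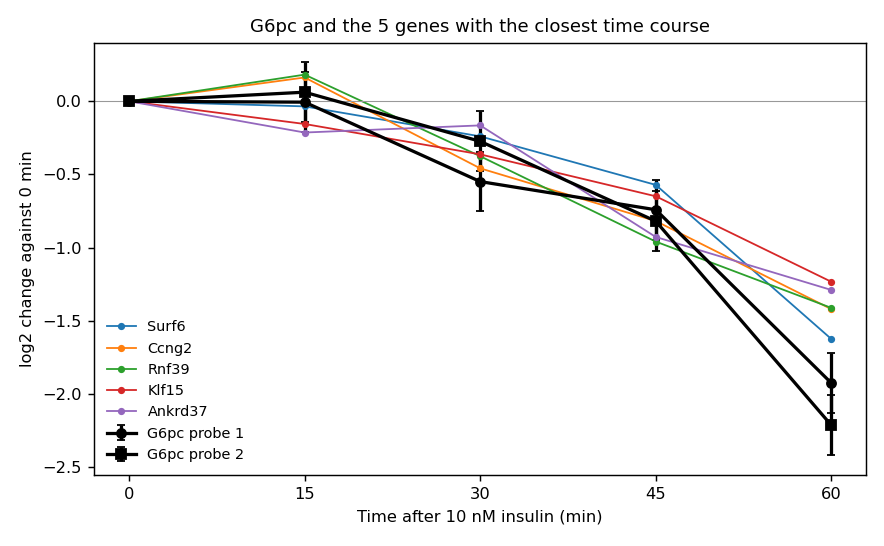
Log2 change against 0 min over time for both G6pc probes (black, with the software's spot error) and the brightest probe of the 5 genes with the closest time course. All 7 lines are near 0 at 15 min and lowest at 60 min, where the 5 genes lie between -1.62 and -1.23 and G6pc at -1.93 and -2.21.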

How the data were processed

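The 5 samples, each 1 array, take their time from the labels. Per the file headers, spots were read with Agilent Feature Extraction 9.5.3.1 on array design 014879 (rn4), and the deposited intensity is background-subtracted and corrected for spatial trends within the array, so that it can be negative. The deposited series matrix holds log2 values that matched the scanner values, as log2 over the 75th percentile centred per probe, with r from 0.9993 to 0.9999 across 19746 probes, and its column medians were 0.0. It holds 16 of the 17 probes.

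After removal of control and outlier spots, repeated spots were averaged and signals divided by the 75th percentile of their array before log2. Of 43379 non-control spots, 50.9% to 56.5% stood well above background, and the number of arrays limits precision. Changes need both arrays well above background. Slopes were fitted with limma 3.58.1 (R 4.3.3) on probes well above background on at least 3 arrays and checked on simulated data. The p-values test each slope, set against how far these samples depart from a straight line over time. They hold no spread between cultures, since the labels do not name separate cultures. Other genes were represented by their brightest probe and named through a RefSeq table (GRCr8). Named genes were all 10 members, up to 3 per wider list with the largest 60 min change, and the 5 closest to G6pc; a few are not reported here. Foxo1, Gcgr, Gckr, Gnas and Pdha1 were chosen after their values were seen. Members and lists were chosen with earlier results of these data known. Exons and untranslated regions were not assigned. Alternatives covered scaling, background, source of values, reference array, fold limit, filters and leaving out arrays. Tables were made with pandas 2.3.3 in Python 3.11.15.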

Additional observations from a re-analysis of the deposited data

How the results depend on the processing

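The count of 2-fold lower probes at 60 min was 2, both of G6pc, under every alternative, and no probe of the list was called by the slope under any. Of 274 alternative values of medians and counts and of the G6pc slopes, 259 kept their side of the limit or moved little. Changes of single probes of the list moved more often. Under scaling to control transcripts 32 of 64 moved, with normexp background 15 of 64 and against the 15 min array 12 of 48. With normexp refitted 2 of 64 moved, and 0 of 64 under each other scaling or source. No paired analysis was possible because each time has 1 array and the labels give no replicate numbers. A slope within slide 1 only is the fit without the 60 min array.

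Scaling to the 8 added control transcripts was chosen after the data were seen. They read 0.17, 0.14, 0.20 and 0.20 higher than at 0 min, so this scaling puts the median of all probes at -0.14, -0.12, -0.18 and -0.19 at 15, 30, 45 and 60 min. The median of the list became -0.19 at 45 min and -0.23 at 60 min, and 1 probe (G6pc) was 2-fold lower at 45 min. The 60 min medians of the wider lists became -0.34 (other isoforms), -0.15 (shared steps), -0.31 (glycogen), -0.057 (cAMP and CREB), -0.14 (transcription factors) and -0.48 (glucose use). Slopes turned to -0.12 for Pck1 probe 2, -0.13 for Pck2 probe 1, -0.15 for Fbp1 probe 1, -0.11 for Pc, -0.0001 for Slc37a4 probe 1, -0.062 for Crem probe 2 and -0.16 for Pygl.

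Normexp background put the list median at -0.67 at 15 min. When it was refitted without 5 spots of the 15 min array whose signal lay over 100 units below the local background, chosen after the data were seen, the median was -0.09. Both fits left 0 of the glucose use genes 2-fold lower at 60 min. A 1.5-fold limit gave 2 probes of the list lower at 45 min, 1 transcription factor higher at 60 min (Cebpb, 2.45% of all genes) and 2 glucose use genes lower (3.4%). Small slopes also changed sign elsewhere: Pck1 probe 2 to -0.045 without the 15 min and -0.0039 without the 45 min array; Pck2 probe 1 to -0.036 without 0 min and -0.12 without 45 min; Fbp1 probe 1 to -0.013 (quantile), -0.017 without 15 min and -0.071 without 60 min; Fbp1 probe 2 to 0.10, Pc to -0.38 and Slc37a4 probe 1 to -0.055 without 60 min; Crem probe 2 to -0.0066 without 45 min; and Pygl to -0.0020 (percentile over probes on all arrays), -0.0004 (quantile), -0.081 without 0 min and -0.0032 without 60 min. The causes were not tested. Adjusted p for the G6pc slopes ran from 0.0892 to 0.80 and from 0.111 to 0.819 over 13 alternatives. Signal not well above background limits Ppargc1a on all 5 arrays and Pdk4 on 2.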
